A study of Mus musculus with 21 samples.

Results

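Livers lacking both ERK1 and hepatocyte ERK2 were compared with livers lacking hepatocyte ERK2 alone, in 11 of the 21 libraries of a mouse liver RNA-seq series on ERK1, ERK2 and double knockouts. The ERK2 knockout (ERK2 KO) carries the genotype ERt-Alb-Cre-ERK2 Cre+, in which a tamoxifen-dependent Cre under the albumin promoter acts on floxed Erk2 in hepatocytes. The double knockout (double KO) carries ERK1-/- -ERt-Alb-Cre-ERK2 Cre+, so that ERK1 is missing in every cell of the animal and ERK2 is targeted in hepatocytes only. By their labels, both groups thus share the Cre and the hepatocyte ERK2 deletion, and they differ in ERK1. Both received a subcutaneous dose of 3 mg tamoxifen 3 weeks before the liver was taken. The libraries were chosen by the transcript level of ERK1, which does not check the ERK2 deletion. The ERK1 knockout (ERK1 KO), used here only for side values, carries ERK1-/- -ERt-Alb-Cre-ERK2 Cre-, without the Cre, and received tamoxifen too. The sources used here give no age, sex or strain background. They list the libraries as separate samples and name no animals, so p-values rest on the spread between samples, part of which may be technical. Cells other than hepatocytes keep ERK2 in both groups, and the albumin promoter that drives Cre belongs to a gene whose own level differed here.

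ERK1 and ERK2 are closely related kinases, activated by RAS, RAF and MEK in a relay that carries signals from receptors such as EGFR and MET into the nucleus. They phosphorylate largely overlapping substrates, and each can cover for much of the loss of the other. In hepatocytes the cascade is known to drive proliferation, to restrain bile acid synthesis downstream of FGFR4 and to be damped by feedback inhibitors of the DUSP, SPRY and SPRED families.

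The 11 libraries were chosen by their level of Mapk3, the gene of ERK1 (chromosome 7, 126759626 to 126765816 in GRCm38), so Mapk3 is described here and not tested. Mapk3 was at 8.03, 5.18, 5.74, 7.52, 7.47 and 6.71 CPM in double KO 1 to 6. It was at 35.8, 36.2, 39.8, 32.9 and 33.3 CPM in the ERK2 KO libraries, numbered 1, 2, 3, 4 and 6. All 6 double KO libraries were below all 5 ERK2 KO libraries. Reads from parts of Mapk3 outside the disrupted part count as well, since the table has a single row per symbol. Just outside the choice stood the library labelled double KO 7, at 36.5 CPM, and those labelled ERK2 KO 5 and 7, at 9.45 and 10.9 CPM. Each of these lay nearer to the other group than to its own. Of the 7 libraries labelled ERK1 KO, which lack ERK1 by their label, number 2 was at 39.9 CPM and went against it, and the others were at between 6.5 and 12.2 CPM.

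**Figure D1:**
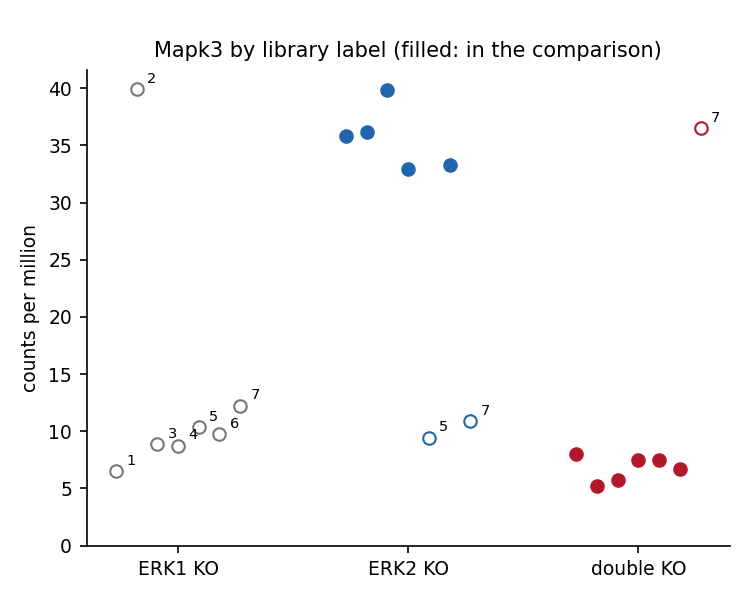
CPM of Mapk3 in all 21 libraries by label, with 1 point per library. Filled points are the 11 libraries compared and hollow points the others; hollow points carry their library numbers. Those labelled double KO 7, ERK2 KO 5 and 7 and ERK1 KO 2 lie nearer to the libraries of the opposite Mapk3 label than to their own.

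Levels are in CPM, counts scaled to the deposited total of each library, which ran from 37703680 to 45460470 in these 11 libraries. Over all 21 libraries and the genes tested here, 56.0% of the variance lay on the leading principal component and 10.2% on the next. Among the 2146 genes that were called, at least 2-fold different and not overlapping between the groups, the library labelled double KO 7 was nearer to the double KO mean for 5.55%. The libraries labelled ERK2 KO 5 and 7 were nearer to it for 10.6% and 6.48%. The library labelled ERK1 KO 1 was nearer to it for 93.1%. No library pair within a group agreed within sampling noise.

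Of 13979 genes tested, 7049 (50.4%) were called at an adjusted p under 0.05, 3440 (24.6%) higher and 3609 (25.8%) lower in the double KO. At least 2-fold differences were more often rises, with 1963 genes (14.0%) higher and 781 (5.59%) lower. The 6 and 5 libraries did not overlap for 4563 genes (32.6%). Under scaling by library size alone the split moved to 5296 higher and 1792 lower, and the median over all genes moved up by 0.23 on the log2 scale, so small differences are read against that shift. With all 14 libraries as labelled, 3128 genes (22.8%) were higher and 2717 (19.8%) lower of 13691 tested, and 464 were at least 2-fold lower. Of the 7049 calls, 5494 were also called with the 14 libraries, each with the same sign. Gene lists below are described by their tested members, and a gene of low level can enter the test through the group where it is high, so list counts are descriptions. Every list count stands against the shares of all tested genes, 24.6% higher and 25.8% lower, and a list near these shares shows no direction of its own. Since RNA came from whole liver, fewer cells of a type and less RNA per cell cannot be told apart.

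**Figure D2:**
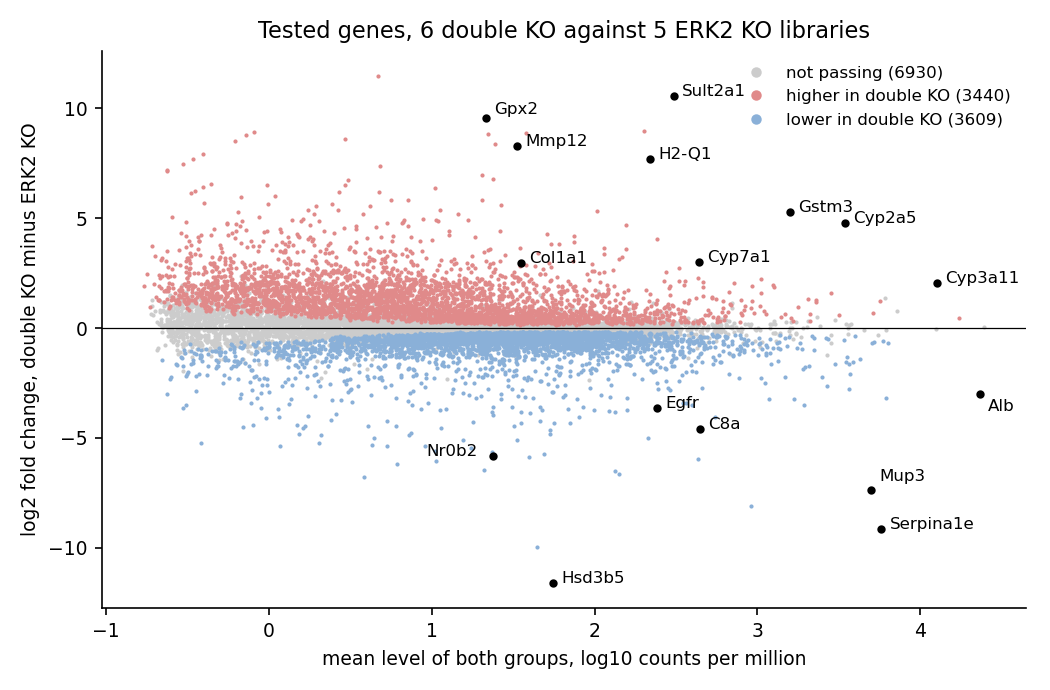
Each tested gene by the mean level of both groups (x axis, log10 CPM) and its log2 fold change in the double KO over the ERK2 KO (y axis). Red genes were called higher (3440) and blue genes lower (3609); the largest falls, such as Hsd3b5 and Serpina1e, reach beyond −9 and the largest rises, such as Sult2a1, beyond 10.

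ERK feedback genes as a list were called in each direction about as often as all tested genes. Of the feedback inhibitors and ERK-induced genes, 6 of 19 tested members were higher, 5 lower and 8 did not pass, with a median log2 fold change of 0.37; these shares (31.6% higher and 26.3% lower) are near those of all tested genes (24.6% and 25.8%). Phlda1, an ERK-induced regulator of cell survival (chromosome 10, 111506286 to 111508649), was at between 10.8 and 40.9 CPM (median 15.4) in the double KO and at 221, 67.6, 50.7, 86.6 and 67 CPM in the ERK2 KO libraries (log2 fold change −2.64 ± 0.45, adjusted p = 0.000555). The groups did not overlap, and with the 14 libraries its call was lost (−0.88, adjusted p = 0.35). The feedback inhibitors Spred2 and Spry4 fell too (−2.25, adjusted p = 4.41e-06 and −2.23, adjusted p = 0.000463), as did Dusp6, the phosphatase that acts on ERK itself, named after its values were seen (−1.91, adjusted p = 0.000165). Dusp6 was at between 7.03 and 22.3 CPM (median 13.7) in the double KO and at 32.4, 57.2, 67.7, 43.5 and 27.1 CPM in the ERK2 KO libraries, with no overlap. The related Spry1, Spry2, Dusp5 and Dusp7 rose by 0.79, 0.79, 1.15 and 0.57 on the log2 scale. With ERK2 KO 1 left out, the log2 fold change was −2.04 for Phlda1.

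Of the immediate-early genes, which are switched on within minutes of a growth signal, 10 of 17 tested members were higher, 2 lower and 5 did not pass, with a median log2 fold change of 0.82. Egr1, a zinc finger factor and textbook ERK target (chromosome 18, 34861207 to 34864956), was at between 6.39 and 20.2 CPM (median 9.81) in the double KO and at 17.1, 284, 316, 3.03 and 10.2 CPM in the ERK2 KO libraries (log2 fold change −3.68 ± 1.01, adjusted p = 0.00969). The groups overlapped for Egr1, which was high in ERK2 KO 2 and 3. Its relative Egr2 went the other way, from a range of 0.0763 to 0.337 CPM in the ERK2 KO libraries to a range of 1.65 to 10.9 CPM (median 2.57) in the double KO (log2 fold change 4.31 ± 0.66, adjusted p = 0.000272). Atf3, a stress-induced factor, rose from a range of 0.538 to 1.74 CPM in the ERK2 KO libraries to a range of 7.57 to 17.7 CPM (median 8.45) in the double KO (log2 fold change 3.08 ± 0.33, adjusted p = 1.92e-05). Jun, Myc and Klf6 rose as well (2.19, 2.02 and 2.32). In the cascade from RAS to the ERK-activated kinases, which was called less often than all tested genes, 3 of 21 tested members were higher, 3 lower and 15 did not pass, with a median log2 fold change of −0.05, or 7 higher and 3 lower under library size alone. Mknk2, a kinase that ERK activates, was higher (0.96, adjusted p = 0.00207), as was the scaffold Ksr1 (0.84, adjusted p = 0.0136), whose call was lost with the 14 libraries, while Nf1, which switches RAS off, was lower (−0.79, adjusted p = 1.22e-05). With ERK2 KO 2 left out, the log2 fold change was −3.09 for Egr1. With ERK2 KO 3 left out, the log2 fold change was −2.98 for Egr1.

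Receptors and ligands upstream moved in both directions. Egfr, the EGF receptor of hepatocytes (chromosome 11, 16752203 to 16913907), was at between 22.9 and 53.3 CPM (median 42) in the double KO and at 355, 278, 681, 706 and 189 CPM in the ERK2 KO libraries. Every double KO library was below every ERK2 KO library (log2 fold change −3.65 ± 0.35, adjusted p = 9.13e-06), and the 3 left-out libraries lay with the ERK2 KO. Erbb3, Met and the receptor inhibitor Lrig1 fell (−0.79, −0.56 and −1.04), and the receptor Erbb2 rose (0.94, adjusted p = 0.00574), while several ligands rose: Btc (1.45, adjusted p = 0.00669), Hgf, the ligand of MET (1.37, adjusted p = 0.000692), Hbegf (1.08) and Ereg (1.47). The ligand Tgfa fell (−1.14). Over the list, 5 of 12 tested members were higher, 5 lower and 2 did not pass, with a median log2 fold change of 0.48.

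Secreted products of hepatocytes were lower. Among plasma proteins, 1 of 25 tested members were higher, 18 lower and 6 did not pass, with a median log2 fold change of −0.70, and with the 14 libraries the counts were 1 higher and 18 lower of 25. Alb, serum albumin (chromosome 5, 90460870 to 90476602), was at between 4843 and 8288 CPM (median 5618) in the double KO and at 35876, 53164, 33482, 33334 and 46924 CPM in the ERK2 KO libraries. No library of either group came near the other (log2 fold change −3.0 ± 0.21, adjusted p = 7.71e-07). Serpina3k, a protease inhibitor of the kallikrein-binding kind (chromosome 12, 104338486 to 104345739), was at between 572 and 2547 CPM (median 1306) in the double KO and at 15067, 6869, 9532, 15308 and 7758 CPM in the ERK2 KO libraries (log2 fold change −3.16 ± 0.40, adjusted p = 6.67e-05). Serpina1b and Serpina1c, alpha-1 antitrypsin genes, were lower (log2 fold changes −1.54 and −2.76), as was Apoa1, the main protein of HDL (−1.64). Serpina1 copies are near-identical and counting could split their reads, so their single values are uncertain. Trf, transferrin, was the member that was higher (0.44, adjusted p = 0.0199). Sepp1, a selenium carrier, was lower (−1.42, adjusted p = 4.4e-06). The number of plasma proteins called higher changed from 1 to 0 without ERK2 KO 4.

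Coagulation and complement proteins fell as a list: 0 of 28 tested members were higher, 25 lower and 3 did not pass, with a median log2 fold change of −1.26, or 0 higher and 24 lower of 28 with the 14 libraries. C8a, a part of the membrane attack complex (chromosome 4, 104815679 to 104876487), was at between 13.5 and 106 CPM (median 27.4) in the double KO and at 977, 848, 908, 916 and 596 CPM in the ERK2 KO libraries (log2 fold change −4.6 ± 0.48, adjusted p = 1.68e-05). F11, coagulation factor XI, was at between 4.58 and 13.6 CPM (median 7.71) in the double KO and at 97.7, 107, 68.2, 69.7 and 81.2 CPM in the ERK2 KO libraries (log2 fold change −3.6 ± 0.28, adjusted p = 1.92e-06). C8b, the partner of C8a, fell by less (−2.4, adjusted p = 4.9e-07). All 3 fibrinogen genes fell, Fga (−1.55), Fgb (−1.31) and Fgg (−1.61). C3, C9 and Pros1 did not pass (−0.05, 0.16 and 0.20).

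Promoters of these genes were searched for the letters GTTAATNAT, an element of liver promoters, on both strands, in RefSeq windows from 250 bases before to 50 after the gene start (GRCm38.p6). It was found in 4 of 21 plasma protein genes and 1 of 21 coagulation genes with a window, against 0.94% of all 27025 gene symbols with a window. The matching stretches are shown because Alb, Afp, Afm and Gc lie in the albumin cluster and all 5 genes fell; capitals mark the match, each sequence is 5′ to 3′ on the strand of its gene, and no match overlapped another motif searched here.
Alb: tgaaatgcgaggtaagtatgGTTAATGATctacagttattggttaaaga
Afp: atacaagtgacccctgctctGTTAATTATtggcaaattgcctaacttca
Afm: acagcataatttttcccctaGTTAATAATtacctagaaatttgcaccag
Gc: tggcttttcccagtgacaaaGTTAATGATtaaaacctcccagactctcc
Fga: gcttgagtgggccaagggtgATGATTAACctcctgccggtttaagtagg
They lie at chr5:90460818-90460866 (plus strand), chr5:90490589-90490637 (plus), chr5:90518791-90518839 (plus), chr5:89457922-89457970 (minus) and chr3:83026087-83026135 (plus, with the site on the opposite strand). The log2 fold changes were −3.0 for Alb, −0.70 for Afp, −1.63 for Afm, −0.61 for Gc and −1.55 for Fga. Most tested members of these lists were lower in any case, 18 of 25 plasma protein and 25 of 28 coagulation genes. A match describes letters in these windows and no binding was measured.

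Among liver-enriched transcription factors, 0 of 16 tested members were higher, 12 lower and 4 did not pass, with a median log2 fold change of −0.76. Onecut1, or HNF6, was at between 0.52 and 5.27 CPM (median 1.73) in the double KO and at 41.2, 3.51, 14.7, 41.1 and 12.1 CPM in the ERK2 KO libraries (log2 fold change −3.68 ± 0.67, adjusted p = 0.000799), and its call was lost with the 14 libraries (−1.53, adjusted p = 0.206). Foxa1, which opens liver chromatin, fell (−1.84, adjusted p = 2.5e-05) and its call was lost in the same way, while the fall of Ppara, the fatty acid sensor (−1.65, adjusted p = 8.08e-07), was kept there (−1.33, adjusted p = 0.000583). Hnf4a and Cebpa, master factors of the hepatocyte, were lower (−0.73 and −0.94). Xbp1, the factor of the secretory pathway, was lower (−1.1). Prox1, Cebpb, Tbx3 and Foxa3 did not pass.

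Several of the deepest falls were in genes with higher levels in male than in female liver, which growth hormone pulses maintain through STAT5. In that list 1 of 19 tested members were higher, 15 lower and 3 did not pass, with a median log2 fold change of −3.43. Hsd3b5, a steroid reductase (chromosome 3, 98618636 to 98645534), was at between 0 and 0.122 CPM (median 0.0226) in the double KO and at 373, 3.85, 17.9, 159 and 3.16 CPM in the ERK2 KO libraries (log2 fold change −11.58 ± 1.71, adjusted p = 0.000209). Serpina1e, an alpha-1 antitrypsin copy of male liver, was at between 3.87 and 55.3 CPM (median 22.4) in the double KO and at 14975, 5348, 7589, 16876 and 12907 CPM in the ERK2 KO libraries (log2 fold change −9.14 ± 0.78, adjusted p = 3.87e-06). Mup3, a major urinary protein that carries pheromones (chromosome 4, 62083476 to 62087317), was at between 19.3 and 162 CPM (median 51.6) in the double KO and at 12108, 8327, 9388, 10812 and 9061 CPM in the ERK2 KO libraries (log2 fold change −7.36 ± 0.65, adjusted p = 5.1e-06). For these 3 genes no double KO library reached the lowest ERK2 KO library, as the rule that named them among the largest falls required. The related Mup7, Mup15 and Mup2 fell (−8.11, −6.19 and −6.07), and Mup copies share reads, so their single values are uncertain. With the 14 libraries, only 1 member of the list was higher and 2 were lower of 19, and Hsd3b5 (−1.15, adjusted p = 0.624), Serpina1e (−2.6, adjusted p = 0.194), Mup3 (−2.69, adjusted p = 0.112) and Mup7 (−2.09, adjusted p = 0.295) were not called, nor were Mup15 (−2.91, adjusted p = 0.063) and Mup2 (−2.42, adjusted p = 0.0859). Mup3 was at 10494 CPM in the library labelled double KO 7, and at 8568 and 10302 CPM in those labelled ERK2 KO 5 and 7. The summed level of the list was between 1475 and 3911 CPM in the double KO and between 18094 and 47509 CPM in the ERK2 KO libraries. In the libraries labelled ERK1 KO 1 to 7 it was at 3962, 5776, 40987, 27986, 26371, 7103 and 11902 CPM. Of these, numbers 1, 2, 6 and 7 lay below the lowest ERK2 KO library. With double KO 1 left out, the log2 fold change was −9.9 for Mup7 and −8.39 for Mup15. With double KO 3 left out, the log2 fold change was −12.24 for Hsd3b5. With ERK2 KO 1 left out, the log2 fold change was −10.22 for Hsd3b5.

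Genes with higher levels in female liver split. Of these, 6 of 17 tested members were higher, 6 lower and 5 did not pass, with a median log2 fold change of −0.01. The sulfotransferase Sult2a1 (chromosome 7, 13796246 to 13837410), which sulfates bile acids and steroids, was at between 464 and 745 CPM (median 636) in the double KO and at 0, 1.13, 0.0519, 0.0254 and 0.504 CPM in the ERK2 KO libraries (log2 fold change 10.58 ± 0.77, adjusted p = 1.15e-06). Sult2a2 and Sult2a5 rose by 9.0 and 8.37, and Sult2a copies share reads. Other members fell: Cyp2a4 (−5.08, adjusted p = 0.0025), a steroid hydroxylase, Cyp3a44 (−6.8, adjusted p = 0.000301) and Cyp2b9 (−6.64, adjusted p = 0.000302). The rise of Sult2a genes was thus not shared by all female-biased genes, and the list median of −0.01 became 0.23 under library size alone. With ERK2 KO 2 left out, the log2 fold change was 11.85 for Sult2a1, 10.4 for Sult2a2, 10.25 for Sult2a5, −4.02 for Cyp2a4 and −5.68 for Cyp3a44.

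On the growth hormone and IGF1 axis, 0 of 15 tested members were higher, 8 lower and 7 did not pass, with a median log2 fold change of −0.61. Ghr, the growth hormone receptor, was at between 327 and 471 CPM (median 396) in the double KO and at 706, 575, 552, 630.2 and 658 CPM in the ERK2 KO libraries (log2 fold change −0.86 ± 0.13, adjusted p = 0.000195). Igfals, which stabilises circulating IGF1, was lower (−1.07, adjusted p = 0.0248) and lost its call with the 14 libraries and under library size alone. Stat5a, Stat5b, Jak2 and Igf1 fell (−0.82, −0.48, −0.40 and −0.40). Socs2 and Cish, direct targets of STAT5, did not pass (−0.56, adjusted p = 0.309 and −1.25, adjusted p = 0.0917). The call of Igfals was lost without any 1 of double KO 6 and ERK2 KO 1 (adjusted p from 0.0557 to 0.0623). The number of genes of the growth hormone axis called lower changed from 8 to 5 without double KO 6.

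Antioxidant genes controlled by NRF2 rose. NRF2, encoded by Nfe2l2, binds antioxidant response elements when oxidants or electrophiles block its inhibitor KEAP1. Of the list, 18 of 24 tested members were higher, 2 lower and 4 did not pass, with a median log2 fold change of 1.29, and with the 14 libraries 18 higher and 1 lower of 22. Gpx2, a glutathione peroxidase (chromosome 12, 76792335 to 76795554), was at between 8.55 and 94.9 CPM (median 32) in the double KO and at 0.10, 0.0513, 0, 0.0254 and 0.053 CPM in the ERK2 KO libraries (log2 fold change 9.55 ± 1.11, adjusted p = 3.46e-05). Gstm3, a glutathione transferase (chromosome 3, 107963696 to 107969174), was at between 990.2 and 7207 CPM (median 2726) in the double KO and at 83.3, 50.6, 57.8, 63.6 and 76.7 CPM in the ERK2 KO libraries (log2 fold change 5.31 ± 0.49, adjusted p = 6.92e-06). Both genes were far higher in each double KO library than in any ERK2 KO library, though the rule that named Gpx2 allowed no overlap. Slc7a11, the cystine importer, was at between 0.464 and 3.39 CPM (median 1.16) in the double KO and had 0 counts in all 5 ERK2 KO libraries. Taking 3 counts over the ERK2 KO libraries as the floor, it was at least 95.7-fold higher, or at least 71.2-fold without double KO 5. Hmox1, haem oxygenase, rose from a range of 9.61 to 23.3 CPM in the ERK2 KO libraries to a range of 102 to 440.3 CPM (median 179.9) in the double KO (log2 fold change 3.67 ± 0.41, adjusted p = 2.46e-05). Nqo1, Cbr3 and Gstm1 rose by 2.32, 3.4 and 1.28. Gclc, the catalytic subunit for glutathione synthesis, and Gstp1 fell (−1.95, adjusted p = 8.94e-08 and −1.62, adjusted p = 0.00124), while Gclm, the other subunit, rose (0.72, adjusted p = 0.000114). Nfe2l2 itself was higher (0.59, adjusted p = 0.000898) and Keap1 did not pass (−0.12, adjusted p = 0.213).

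The antioxidant response element TGACNNNGC was found, on either strand, in the windows of 5 of 20 list members (25%) and of 14% of all gene symbols with a window. The stretches upstream of the start are shown for 3 members that rose, with the match in capitals; each is on the strand of its gene, and none overlapped another motif searched here.
Gclm: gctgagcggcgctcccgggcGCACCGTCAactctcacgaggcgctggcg
Txnrd1: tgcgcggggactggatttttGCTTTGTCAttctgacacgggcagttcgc
Nfe2l2: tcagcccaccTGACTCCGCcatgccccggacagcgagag
They lie at chr3:122245403-122245451 (plus strand, site on the opposite strand), chr10:82859094-82859142 (plus, site on the opposite strand) and chr2:75704875-75704913 (minus). Txnrd1, thioredoxin reductase, rose by 0.57. Srxn1, which repairs oxidised peroxiredoxins, and Me1 also held a match, with log2 fold changes of 1.54 (adjusted p = 1.59e-07) and 0.67 (adjusted p = 0.152); Me1 did not pass.

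Drug-metabolising cytochromes P450 moved in both directions: 7 of 22 tested members were higher, 9 lower and 6 did not pass, with a median log2 fold change of −0.58. That is 31.8% higher and 40.9% lower, against 24.6% and 25.8% of all tested genes. Cyp2a5, which oxidises coumarin and nicotine (chromosome 7, 26835339 to 26843264), was at between 5119 and 8479 CPM (median 6382) in the double KO and at 193, 294, 226, 97.7 and 223 CPM in the ERK2 KO libraries (log2 fold change 4.79 ± 0.30, adjusted p = 4.07e-07). Cyp3a11, a PXR target that oxidises many drugs and bile acids (chromosome 5, 145854607 to 145879854), was at between 9113 and 25848 CPM (median 22566) in the double KO and at 2496, 4315, 4719, 5389.9 and 4954 CPM in the ERK2 KO libraries (log2 fold change 2.03 ± 0.29, adjusted p = 0.000146). Cyp2e1, the ethanol and paracetamol oxidase of pericentral hepatocytes, moved down, from a range of 4945 to 6761 CPM in the ERK2 KO libraries to a range of 833 to 2507 CPM (median 1544) in the double KO (log2 fold change −2.1 ± 0.24, adjusted p = 2.97e-05). Por, the electron donor of these enzymes, rose by 2.03, and the receptors PXR (Nr1i2) and CAR (Nr1i3) moved in opposite directions (0.92 and −0.65). Cyp2a4 and Cyp2a5 are near-identical and went opposite ways, so each is uncertain.

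Conjugating enzymes were lower more often than higher: 3 of 22 tested members were higher, 11 lower and 8 did not pass, with a median log2 fold change of −0.39. Sult1e1, the oestrogen sulfotransferase, was the largest rise, at 0.472, 13.9, 41.8, 20.6, 88.2 and 75.9 CPM in double KO 1 to 6 and at 0.10, 0.641, 1.82, 0.356 and 0.0796 CPM in the ERK2 KO libraries (log2 fold change 5.83 ± 1.13, adjusted p = 0.00126). The glucuronosyltransferases Ugt2b38 and Ugt2b1 fell (−5.0, adjusted p = 0.000355 and −3.52, adjusted p = 4.65e-06), and Ugt2b38 was not called with the 14 libraries. Of the carboxylesterases, which split esters of drugs and lipids, 2 of 12 tested members were higher, 6 lower and 4 did not pass, with a median log2 fold change of −0.38. Ces3a was at between 80.1 and 894 CPM (median 102) in the double KO and at 2714, 1524, 2159, 2596 and 1496 CPM in the ERK2 KO libraries (log2 fold change −3.22 ± 0.66, adjusted p = 0.0018), and Ces2e and Ces3b fell (−2.57 and −2.49). Ces3a and Ces3b were not called with the 14 libraries. Ces4a, outside that list, was among the largest falls, from a range of 1.13 to 201 CPM in the ERK2 KO libraries to a range of 0.0258 to 0.315 CPM (median 0.0609) in the double KO (log2 fold change −9.96 ± 1.46, adjusted p = 0.000193; with the 14 libraries −1.19, adjusted p = 0.606). With double KO 1 left out, the log2 fold change was −6.16 for Ugt2b38, −4.14 for Ces3a and −10.62 for Ces4a. With ERK2 KO 1 left out, the log2 fold change was −9.34 for Ces4a. With ERK2 KO 3 left out, the log2 fold change was 6.87 for Sult1e1.

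Bile acid genes changed on the synthesis, sensing and transport sides. Cyp7a1, the rate-limiting enzyme of bile acid synthesis (chromosome 4, 6265612 to 6275632), was at between 634 and 899.9 CPM (median 813) in the double KO and at 124, 22.5, 162, 46.7 and 66.5 CPM in the ERK2 KO libraries. Its lowest double KO library stood above its highest ERK2 KO library (log2 fold change 2.99 ± 0.42, adjusted p = 0.000153). Cyp7b1, of the alternative pathway (chromosome 3, 18071944 to 18243890), went down, with between 50.03 and 107 CPM (median 62.1) in the double KO and 686, 391, 689, 945 and 579.9 CPM in the ERK2 KO libraries (log2 fold change −3.43 ± 0.26, adjusted p = 1.48e-06). Cyp2c70, which makes the muricholic acids of mice, fell (−2.72, adjusted p = 0.00238), and Cyp8b1, which sets the share of cholic acid, did not pass (0.25, adjusted p = 0.721). Over the synthesis list, 3 of 14 tested members were higher, 6 lower and 5 did not pass, with a median log2 fold change of −0.09, or 4 higher and 5 lower under library size alone, where the median was 0.14. With double KO 3 left out, the log2 fold change was −3.57 for Cyp2c70.

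Nr0b2, encoding SHP, the repressor that links the bile acid receptor FXR to Cyp7a1 (chromosome 4, 133553376 to 133556686), was at between 0.695 and 1.6 CPM (median 0.846) in the double KO and at 46.4, 59.7, 52.6, 52.4 and 23.3 CPM in the ERK2 KO libraries (log2 fold change −5.82 ± 0.30, adjusted p = 1.34e-07). SHP was thus low in every double KO library. FXR itself (Nr1h4) and Klb, the co-receptor of FGFR4, were lower (−0.56 and −0.75), and Fgfr4 did not pass (−0.10, adjusted p = 0.595). Among uptake carriers, Slco1a1 fell from a range of 248 to 633 CPM in the ERK2 KO libraries to a range of 9.86 to 19.6 CPM (median 16) in the double KO (log2 fold change −5.0 ± 0.32, adjusted p = 5.05e-07; with the 14 libraries −2.17, adjusted p = 0.0722), as did Slc10a1, or NTCP (−2.13). Slc51b, a subunit of the basolateral exporter, rose from a range of 0.0763 to 0.40 CPM in the ERK2 KO libraries to a range of 2.57 to 11.1 CPM (median 7.19) in the double KO (log2 fold change 4.5 ± 0.49, adjusted p = 2.14e-05), and Abcc4, another basolateral exporter, by 2.55. Abcg5 and Abcg8, which together form the biliary sterol pump, fell (−2.56 and −3.14), while Abcb11, the canalicular bile salt pump, rose by 0.65. In all, 4 of 18 tested members were higher, 10 lower and 4 did not pass, with a median log2 fold change of −0.58.

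Of genes for fatty acid oxidation, ketogenesis and PPAR-alpha targets, 7 of 33 tested members were higher, 12 lower and 14 did not pass, with a median log2 fold change of −0.31. Vnn1, a pantetheinase and PPAR-alpha target, was at between 0.113 and 3.99 CPM (median 1.51) in the double KO and at 32.2, 96.6, 62.7, 86.2 and 111 CPM in the ERK2 KO libraries (log2 fold change −5.87 ± 0.59, adjusted p = 1.27e-05). Cyp4a31, a fatty acid hydroxylase, fell (−3.33), as did Fabp1, the liver fatty acid carrier (−3.24), and Bdh1, of ketone body metabolism (−2.1). Fgf21, the fasting hormone, rose (3.53, adjusted p = 0.000311), and Acaa1b, a peroxisomal thiolase, was at between 795 and 9603 CPM (median 3386) in the double KO and at 1109.5, 832, 1248, 1379 and 1660.5 CPM in the ERK2 KO libraries (log2 fold change 1.61 ± 0.55, adjusted p = 0.0283). For fatty acid synthesis, 3 of 23 tested members were higher, 5 lower and 15 did not pass, with a median log2 fold change of 0.08. Mlxipl, encoding the carbohydrate sensor ChREBP, fell (−1.89, adjusted p = 0.00169), Scd2, a desaturase, rose (1.95, adjusted p = 4.49e-05) and Lpin2, a phosphatidate phosphatase, rose (1.45, adjusted p = 0.000451). The call of Acaa1b was lost without any 1 of double KO 1 and 2 and ERK2 KO 1, 2, 3 and 4 (adjusted p from 0.0506 to 0.0614). With ERK2 KO 4 left out, the log2 fold change was 4.24 for Fgf21.

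Cholesterol genes were higher about as often as all tested genes and lower less often (26.1% higher and 8.7% lower, against 24.6% and 25.8%): 6 of 23 tested members were higher, 2 lower and 15 did not pass, with a median log2 fold change of 0.24, or 11 higher and 1 lower under library size alone. Fdps, which makes farnesyl pyrophosphate, rose (0.84, adjusted p = 0.0272), with between 351 and 1037 CPM (median 633) in the double KO and between 233 and 470.4 CPM in the ERK2 KO libraries. Stard4, a sterol carrier, was at between 33.1 and 48.7 CPM (median 36.4) in the double KO and at 91.8, 64.7, 65.5, 76.2 and 78.6 CPM in the ERK2 KO libraries (log2 fold change −1.2 ± 0.13, adjusted p = 1.64e-05), with a lower level in the double KO. For lipoproteins, 3 of 17 tested members were higher, 9 lower and 5 did not pass, with a median log2 fold change of −0.59. Apom, the carrier of sphingosine phosphate on HDL, was at between 17.7 and 45.1 CPM (median 21.2) in the double KO and at 259.99, 291, 332, 287 and 274 CPM in the ERK2 KO libraries (log2 fold change −3.73 ± 0.23, adjusted p = 3.82e-07). Apoa4, found on chylomicrons and HDL, and Pltp, the phospholipid transfer protein, rose (2.27, adjusted p = 0.00225 and 1.82, adjusted p = 0.000104). The call of Fdps was lost without any 1 of double KO 3 and ERK2 KO 2 and 4 (adjusted p from 0.0554 to 0.0684). The number of cholesterol genes called higher changed from 6 to 3 without any 1 of double KO 3 and ERK2 KO 2.

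Genes of glucose production, glycolysis and insulin response were mostly lower where they moved: 1 of 23 tested members were higher, 11 lower and 11 did not pass, with a median log2 fold change of −0.63. Ppp1r3c, which directs phosphatase to glycogen, was at between 9.99 and 21.2 CPM (median 12.3) in the double KO and at 70.9, 76.5, 50.5, 60.2 and 52.2 CPM in the ERK2 KO libraries (log2 fold change −2.34 ± 0.22, adjusted p = 8.95e-06). Irs2, the insulin receptor substrate, and Pklr, liver pyruvate kinase, fell (−1.55, adjusted p = 0.00349 and −1.52, adjusted p = 0.00109), and Pklr was not called with the 14 libraries. Pck1, the gluconeogenic carboxykinase, did not pass (−1.21, adjusted p = 0.104). Along the lobule, 5 of 19 tested members were higher, 5 lower and 9 did not pass, with a median log2 fold change of −0.07 among pericentral WNT-dependent genes, with a median of 0.16 under library size alone. These shares (26.3% each way) are near those of all tested genes (24.6% higher and 25.8% lower). Of periportal and urea cycle genes, 3 of 15 tested members were higher, 5 lower and 7 did not pass, with a median log2 fold change of −0.23, with a median of 0.00 under library size alone. Hal, which breaks down histidine, fell (−2.82, adjusted p = 8.68e-05), Otc, of the urea cycle, fell (−1.45, adjusted p = 3.98e-05), and Cps1, its entry enzyme, rose (0.67, adjusted p = 0.0459). The number of pericentral genes called higher changed from 5 to 3 without any 1 of double KO 2 and 3 and ERK2 KO 3. The number of pericentral genes called lower changed from 5 to 3 without any 1 of double KO 6 and ERK2 KO 1.

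Chaperones of the endoplasmic reticulum, which fold secreted proteins, fell as a list: 0 of 19 tested members were higher, 15 lower and 4 did not pass, with a median log2 fold change of −0.90, or 0 higher and 14 lower of 19 with the 14 libraries and 0 higher and 14 lower under library size alone. Sdf2l1, a chaperone partner, was at between 7.52 and 19 CPM (median 14.7) in the double KO and at 44.1, 55.3, 50.7, 68.5 and 39.9 CPM in the ERK2 KO libraries (log2 fold change −2.11 ± 0.21, adjusted p = 1.35e-05). Pdia6, a disulfide isomerase, was at between 133 and 216 CPM (median 170.1) in the double KO and at 359.5, 488, 418, 469 and 352 CPM in the ERK2 KO libraries (log2 fold change −1.53 ± 0.14, adjusted p = 5.24e-06). Hyou1, a large chaperone of the HSP70 kind, fell (−1.43), as did Hspa5, or BiP (−1.01), and Hsp90b1, or GRP94 (−1.11). The groups did not overlap for Pdia6.

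The endoplasmic reticulum stress element, CCAAT and CCACG separated by 9 bases, is bound by ATF6 with NF-Y and can also bind XBP1. Searched on both strands, it was found in the windows of 7 of 17 list members with a window (41.2%) and of 0.137% of all gene symbols with a window. All 7 genes fell, as did most of the list (15 of 19 tested members), and a part of the element in the fall was not tested. Their stretches are shown with the element in capitals, each on the strand of its gene, with no overlap with the other motifs searched.
Hspa5: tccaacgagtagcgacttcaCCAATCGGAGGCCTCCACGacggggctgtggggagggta
Hsp90b1: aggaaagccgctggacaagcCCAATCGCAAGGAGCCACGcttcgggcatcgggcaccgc
Dnajc3: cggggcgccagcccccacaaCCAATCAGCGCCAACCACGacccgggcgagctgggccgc
Pdia6: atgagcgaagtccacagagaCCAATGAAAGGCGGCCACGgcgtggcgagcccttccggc
Calr: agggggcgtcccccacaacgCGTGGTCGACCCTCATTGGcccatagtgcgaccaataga
Canx: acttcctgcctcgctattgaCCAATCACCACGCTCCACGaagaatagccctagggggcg
Creld2: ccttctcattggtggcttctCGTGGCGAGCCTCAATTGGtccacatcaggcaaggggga
They lie at chr2:34772005-34772063 (plus strand), chr10:86705618-86705676 (minus), chr14:118937807-118937865 (plus), chr12:17266471-17266529 (plus), chr8:84847055-84847113 (minus, element on the opposite strand), chr11:50325780-50325838 (minus) and chr15:88819500-88819558 (plus, element on the opposite strand). Their log2 fold changes were −1.01, −1.11, −0.95, −1.53, −0.82, −0.57 and −1.21. The promoter of Hsp90b1 held a further match on the opposite strand. No binding of a factor was measured.

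The amino acid stress response driven by ATF4 split instead: 8 of 20 tested members were higher, 4 lower and 8 did not pass, with a median log2 fold change of 0.01. Psat1 and Phgdh, of serine synthesis, and Asns, asparagine synthetase, rose (1.9, 2.18 and 1.72), while Sesn2 and Trib3 fell (−1.73 and −1.36) and Atf4 itself and Ddit3 did not pass (−0.33, adjusted p = 0.12 and −0.02, adjusted p = 0.959).

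**Figure D3:**
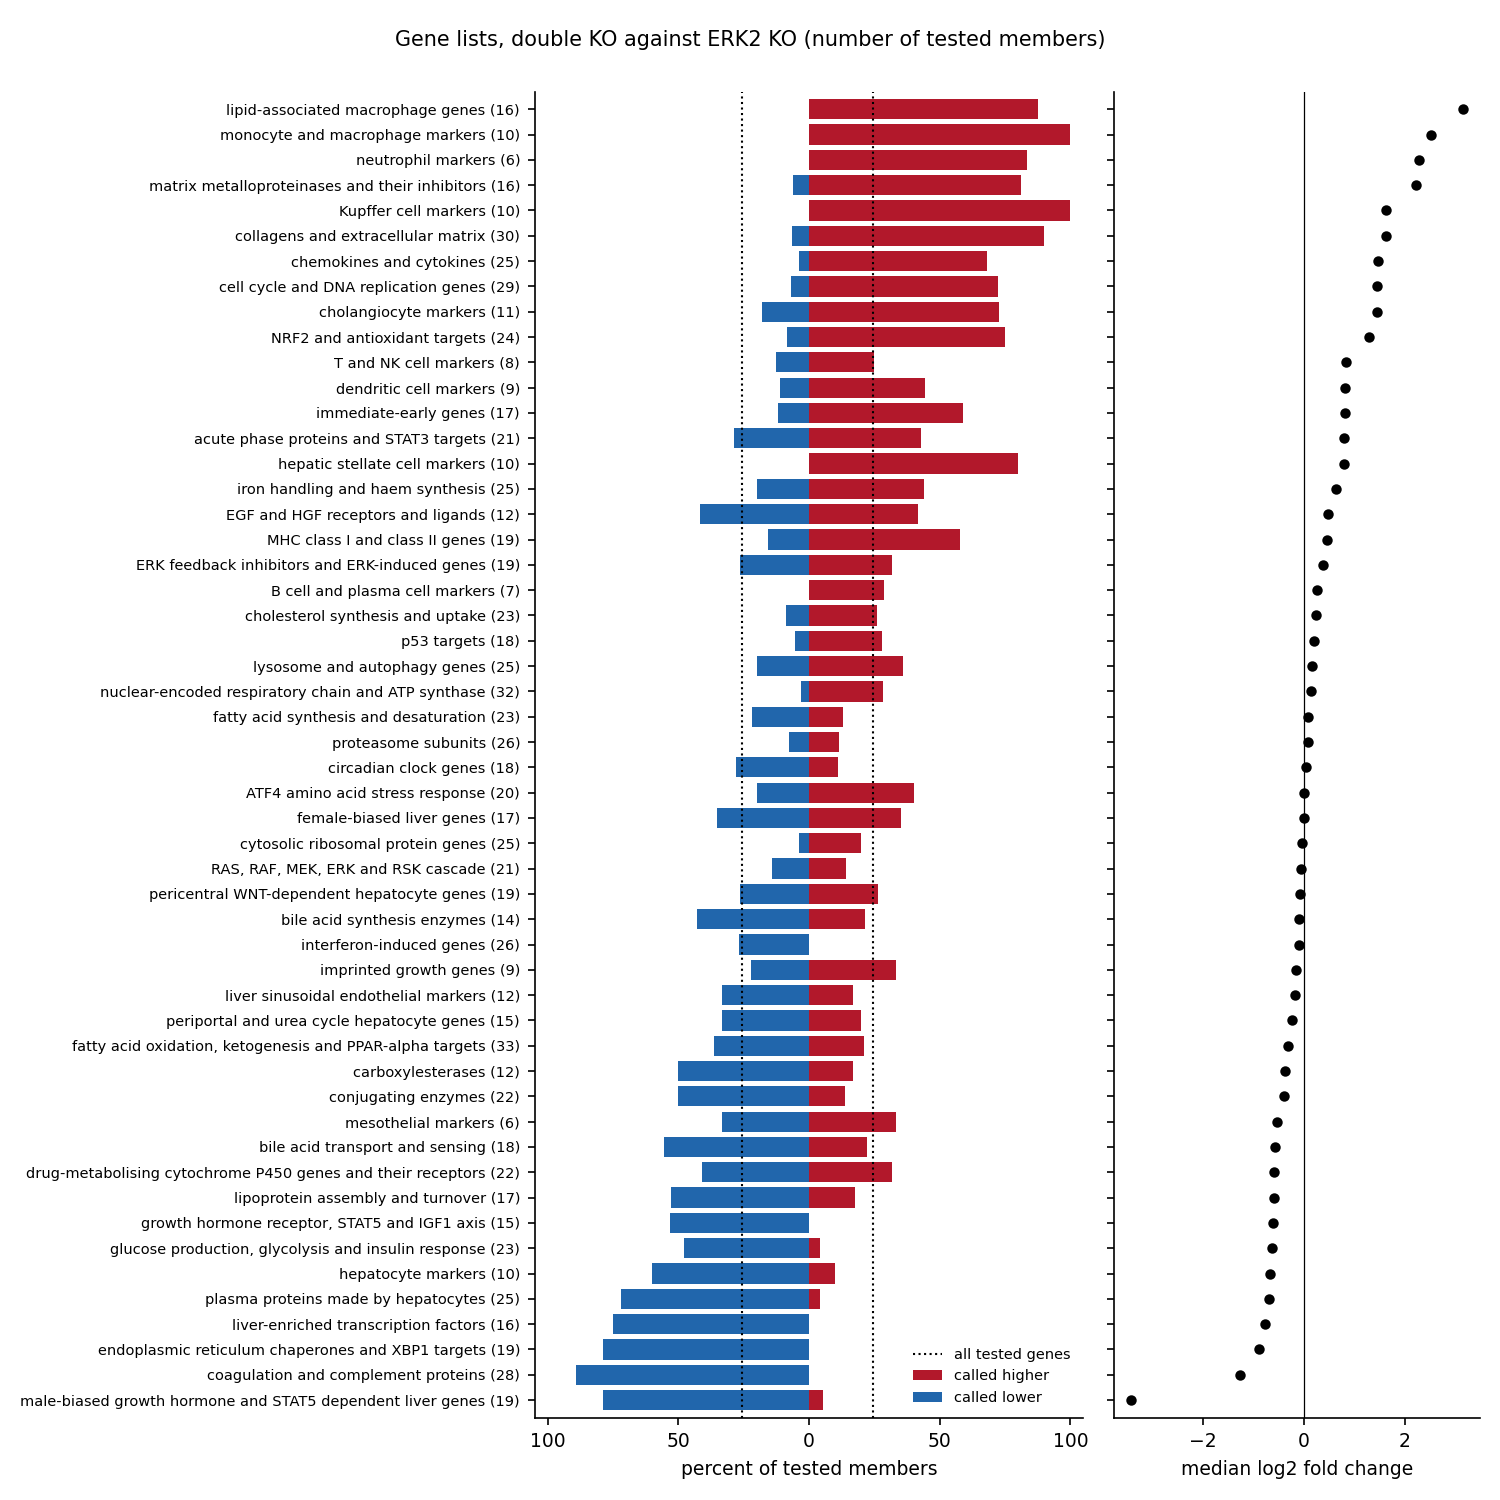
Gene lists with at least 5 tested members, ordered by median. Bars give the percent of tested members called higher (red) or lower (blue) in the double KO, dotted lines the same for all tested genes (24.6% and 25.8%), and points on the right the median log2 fold change; macrophage, matrix and cell cycle lists lie at the top and coagulation, chaperone and male-biased lists at the bottom.

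Macrophage markers rose. All 10 Kupffer cell markers and all 10 monocyte and macrophage markers were higher, with medians of 1.63 and 2.52, and with the 14 libraries 9 and 10 were. The summed Kupffer marker level was between 1041 and 3385 CPM in the double KO and between 242 and 849 CPM in the ERK2 KO libraries. It was at 313 CPM in the library labelled double KO 7 and at 412 and 507 CPM in those labelled ERK2 KO 5 and 7. In the libraries labelled ERK1 KO 1 to 7 it was at 1480, 1107, 325, 606, 611, 1278 and 717 CPM. Of these, numbers 1, 2 and 6 lay within the double KO range. The summed monocyte and macrophage marker level was between 325 and 1496 CPM in the double KO and between 90.4 and 309 CPM in the ERK2 KO libraries. The libraries labelled ERK1 KO 1, 2 and 6 were within the double KO range here too, at 472, 382 and 404 CPM. No marker of either list was at 0 in all libraries. Of hepatocyte markers, 1 of 10 tested members were higher, 6 lower and 3 did not pass, with a median log2 fold change of −0.66. They summed to between 22643 and 31683 CPM in the double KO and between 57141 and 76490.00 CPM in the ERK2 KO libraries, a difference carried mostly by Alb: without it the sum was between 16346 and 25729.7 CPM in the double KO and between 23322 and 28158 CPM in the ERK2 KO libraries, and the groups overlapped. The part of these shifts in cell markers in the other differences was not tested.

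Chil3, a chitinase-like protein of activated macrophages (chromosome 3, 106147554 to 106167564), was at 1.84, 3.06, 6.96, 62.4, 159 and 10.3 CPM in double KO 1 to 6 and at 0.35, 0.205, 0.519, 0.0763 and 0.186 CPM in the ERK2 KO libraries (log2 fold change 6.96 ± 1.39, adjusted p = 0.0015). The level spanned a wide range among the double KO libraries. The lowest of them was above each ERK2 KO library, as the rule that named Chil3 among the largest rises required. Marco, a scavenger receptor, rose by 3.39 and Ccr2, the receptor of incoming monocytes, by 3.33. Of the genes of lipid-associated macrophages, cells that gather around dying or fat-laden cells, 14 of 16 tested members were higher, 0 lower and 2 did not pass, with a median log2 fold change of 3.15. Gpnmb, a glycoprotein of these cells (chromosome 6, 49036518 to 49058182), was at 8.63, 11.7, 13.2, 221, 168 and 30.6 CPM in double KO 1 to 6 and at 0.20, 0.103, 0.156, 0 and 0.212 CPM in the ERK2 KO libraries (log2 fold change 8.87 ± 1.32, adjusted p = 0.000215). Mmp12, macrophage elastase (chromosome 9, 7344397 to 7360461), was at between 28.6 and 222 CPM (median 35.8) in the double KO and at 0.30, 0.0769, 0.234, 0.0763 and 0.212 CPM in the ERK2 KO libraries (log2 fold change 8.29 ± 0.84, adjusted p = 1.39e-05). Itgax and Trem2 rose by 4.99 and 4.89. Lysosome genes moved less: 9 of 25 tested members were higher, 5 lower and 11 did not pass, with a median log2 fold change of 0.16, with Ctsl, Ctsd and Grn, which macrophages also express, up by 1.22, 1.22 and 1.0. With double KO 4 left out, the log2 fold change was 8.13 for Gpnmb, 7.37 for Mmp12 and 4.21 for Itgax. With double KO 5 left out, the log2 fold change was 5.8 for Chil3. With ERK2 KO 3 left out, the log2 fold change was 5.07 for Marco.

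Chemokines and cytokines rose as well: 17 of 25 tested members were higher, 1 lower and 7 did not pass, with a median log2 fold change of 1.46. Ccl7 and Ccl2, which attract monocytes, rose by 4.41 and 4.16, and Cxcl2, which attracts neutrophils, by 4.4. Ccl22 rose by 4.64 and Tnf by 2.74, while Il1b, Cxcl1 and Cxcl9 did not pass (0.29, adjusted p = 0.597, −0.83, adjusted p = 0.25 and −0.32, adjusted p = 0.377). The levels behind these folds were low, with Ccl7 at between 1.27 and 9.13 CPM (median 2.51) in the double KO and between 0.0509 and 0.35 CPM in the ERK2 KO libraries. Of neutrophil markers, 5 of 6 tested members were higher, 0 lower and 1 did not pass, with a median log2 fold change of 2.27, with S100a8 at between 3.44 and 6.62 CPM (median 4.22) in the double KO and between 0.102 and 1.33 CPM in the ERK2 KO libraries. Among T and NK cell markers, 2 of 8 tested members were higher, 1 lower and 5 did not pass, with a median log2 fold change of 0.84. Their share higher (25.0%) was near that of all tested genes (24.6%). Cd4 was the member that fell (−1.04, adjusted p = 0.0397), a call lost with the 14 libraries (−0.56, adjusted p = 0.242), with all 21 (−0.56, adjusted p = 0.296), with ERK1 KO 3 to 7 added, under library size alone (−0.81, adjusted p = 0.105), with a stricter filter and with limma voom. The call of Cd4 was lost without any 1 of double KO 1, 2, 3 and 6 and ERK2 KO 1, 3, 4 and 6 (adjusted p from 0.0572 to 0.147). With double KO 4 left out, the log2 fold change was 3.95 for Ccl22. With ERK2 KO 2 left out, the log2 fold change was 5.09 for Cxcl2. With ERK2 KO 6 left out, the log2 fold change was 5.31 for Ccl22.

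Interferon-induced genes did not follow: 0 of 26 tested members were higher, 7 lower and 19 did not pass, with a median log2 fold change of −0.10, with a median of 0.14 under library size alone. The share lower (26.9%) was near that of all tested genes (25.8%), of which 24.6% were higher. Iigp1, an interferon-gamma-induced GTPase, fell (log2 fold change −2.77 ± 0.69, adjusted p = 0.00562), and Ifit1 and Ifi44 fell (−0.97 and −1.07); the Ifit1 call was lost with all 21 libraries (−0.80, adjusted p = 0.057). Among MHC genes, 11 of 19 tested members were higher, 3 lower and 5 did not pass, with a median log2 fold change of 0.46. The class II genes H2-Aa, H2-Ab1 and H2-Eb1, their loading factor H2-DMb1 and their regulator Ciita rose by 1.32, 1.17, 1.29, 1.91 and 1.39. H2-Q1, a non-classical class I gene outside the list (chromosome 17, 35320525 to 35328142), was at between 309 and 597 CPM (median 439) in the double KO and at 2.78, 1.05, 2.98, 0.916 and 1.35 CPM in the ERK2 KO libraries (log2 fold change 7.68 ± 0.40, adjusted p = 1.34e-07). H2-Q copies share reads, and H2-Q6 and H2-Q7 were at 0 in all libraries. Acute phase genes split, 9 of 21 tested members were higher, 6 lower and 6 did not pass, with a median log2 fold change of 0.79: Orm3, Saa2 and Lcn2 rose by 4.18, 2.74 and 2.5, and Crp fell (−2.4). The Lcn2 call was lost with all 21 libraries (2.11, adjusted p = 0.0588). With double KO 5 left out, the log2 fold change was −4.1 for Iigp1. With ERK2 KO 3 left out, the log2 fold change was 3.09 for Lcn2. The number of interferon-induced genes called lower changed from 7 to 11 without double KO 5. The number of MHC genes called higher changed from 11 to 5 without ERK2 KO 4, 6 without ERK2 KO 1 and 7 without any 1 of double KO 4 and 5 and ERK2 KO 6.

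**Figure D4:**
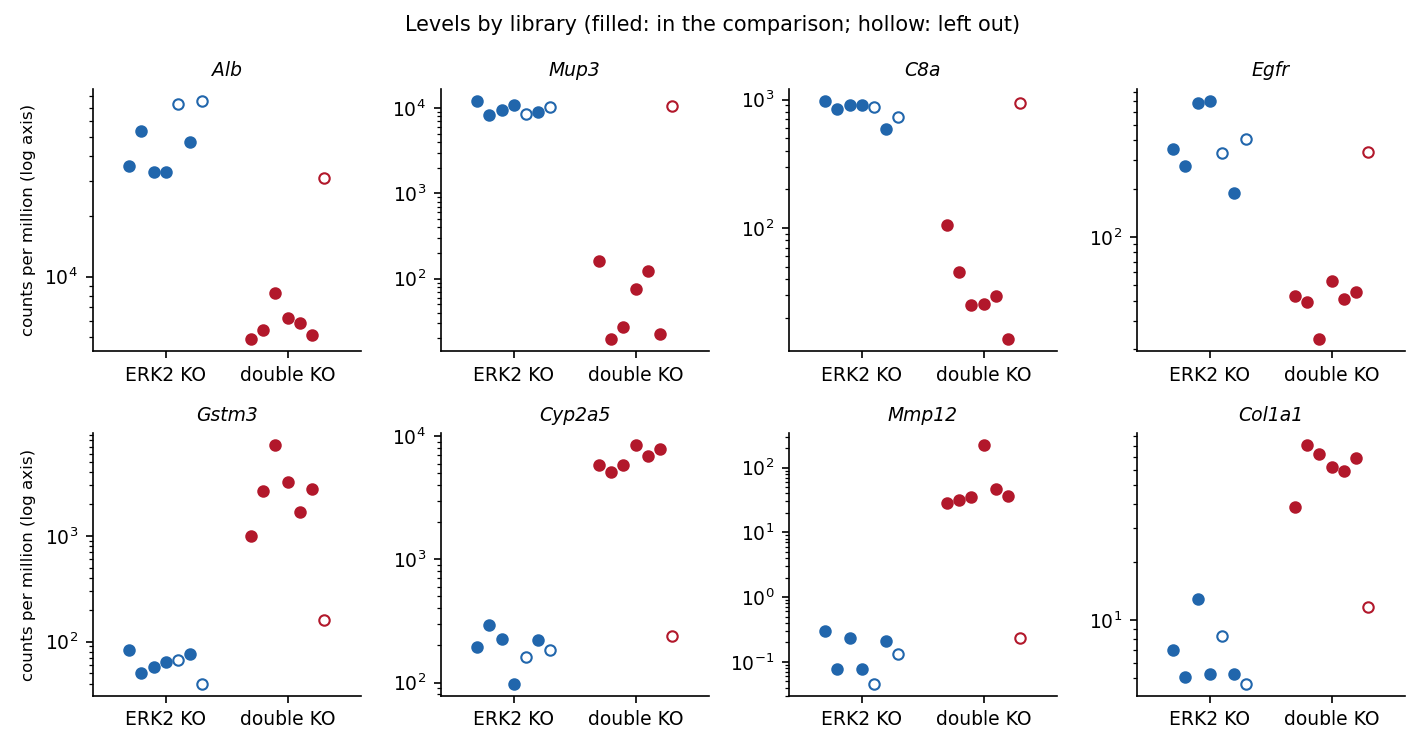
CPM (log axis) of 8 genes in the libraries labelled ERK2 KO and double KO, with 1 point per library. Filled points are the 11 libraries compared, which do not overlap for any of the 8 genes. For Mup3 and Mmp12 the rule that named them required this. Hollow points are the libraries labelled ERK2 KO 5 and 7 and double KO 7, all of which lie nearer to the ERK2 KO libraries.

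Matrix genes rose. Of collagens and other matrix genes, 27 of 30 tested members were higher, 2 lower and 1 did not pass, with a median log2 fold change of 1.62, and with the 14 libraries 27 higher and 2 lower of 30. Col1a1, a chain of fibrillar collagen (chromosome 11, 94936224 to 94953042), was at between 38.6 and 80.5 CPM (median 65.7) in the double KO and at 6.95, 5.08, 12.9, 5.27 and 5.25 CPM in the ERK2 KO libraries (log2 fold change 2.94 ± 0.27, adjusted p = 7.56e-06). Vcan, a matrix proteoglycan, and Thbs1, which activates TGF-beta, rose by 3.79 and 3.1, and Col3a1 by 2.6. Fn1, fibronectin, which hepatocytes secrete into plasma, fell (−2.49, adjusted p = 6.72e-07), as did Col12a1 (−1.29, adjusted p = 0.00672). Among metalloproteinases and their inhibitors, 13 of 16 tested members were higher, 1 lower and 2 did not pass, with a median log2 fold change of 2.22. Timp1, an inhibitor made in injured liver (chromosome X, 20870166 to 20874737), was at between 2.05 and 5.01 CPM (median 3.25) in the double KO and at 0.025, 0.0769, 0.156, 0 and 0.0796 CPM in the ERK2 KO libraries (log2 fold change 5.39 ± 0.52, adjusted p = 1.01e-05). Mmp13, a collagenase, rose from a range of 0.026 to 0.212 CPM in the ERK2 KO libraries to a range of 1.51 to 17.4 CPM (median 2.83) in the double KO (log2 fold change 5.39 ± 0.84, adjusted p = 0.000293), and Plaur, the urokinase receptor, by 4.21. With double KO 4 left out, the log2 fold change was 4.47 for Mmp13.

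Hepatic stellate cell markers rose by less: 8 of 10 tested members were higher, 0 lower and 2 did not pass, with a median log2 fold change of 0.79, and their summed level was between 280.4 and 496 CPM in the double KO and between 156 and 232 CPM in the ERK2 KO libraries. Hand2 and Rgs5 rose by 1.06 and 1.09, and Lrat, the vitamin A enzyme of stellate cells, by 0.74. Of cholangiocyte markers, 8 of 11 tested members were higher, 2 lower and 1 did not pass, with a median log2 fold change of 1.44. Spp1, or osteopontin, which macrophages also make, was at between 104 and 661 CPM (median 146) in the double KO and at 30.5, 22.8, 24, 20.4 and 23.2 CPM in the ERK2 KO libraries (log2 fold change 3.24 ± 0.52, adjusted p = 0.000384). Epcam and Tspan8 rose by 2.06 and 2.65, Krt19 did not pass (0.75, adjusted p = 0.0743) and Krt23 fell (−3.35, adjusted p = 3.64e-05). Sinusoidal endothelial markers split, 2 of 12 tested members were higher, 4 lower and 6 did not pass, with a median log2 fold change of −0.17, with Kdr, the VEGF receptor, lower (−0.91, adjusted p = 0.00578). The scavenger receptor Stab1 was higher (0.68, adjusted p = 0.0018), a call lost with the 14 libraries. The part of cells other than hepatocytes in the matrix rise was not tested. The number of endothelial markers called lower changed from 4 to 2 without any 1 of double KO 6 and ERK2 KO 2, 3 and 6.

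Cell cycle genes were mostly called higher, though the groups overlapped for most of them. Of the list, 21 of 29 tested members were higher, 2 lower and 6 did not pass, with a median log2 fold change of 1.44, or 22 higher and 2 lower of 29 with the 14 libraries. The groups did not overlap for 8 of the 29 members, against 32.6% of all tested genes. Top2a, the topoisomerase of dividing cells, was at 8.58, 10.1, 41.6, 6.23, 5.25 and 2.98 CPM in double KO 1 to 6 and at 0.775, 2.1, 4.72, 0.382 and 0.955 CPM in the ERK2 KO libraries (log2 fold change 2.56 ± 0.77, adjusted p = 0.0155). Most values were below 10 CPM and the groups overlapped for Top2a. Plk1 and Aurkb, mitotic kinases, rose by 2.65 and 2.6, and Mki67 by 2.17. E2f8, a factor of hepatocyte polyploidy, and Tk1, a thymidine kinase, fell (−2.13, adjusted p = 0.00693 and −1.31, adjusted p = 0.00011). The summed level of the list, which counts E2f8 and Tk1 too, was between 113 and 540 CPM in the double KO. It was between 123 and 168 CPM in the ERK2 KO libraries, so the groups overlapped. Whether the cycling cells were hepatocytes was not measured. Kupffer and macrophage markers rose in the same group of libraries. The cell cycle sum was highest in double KO 3 (540 CPM), and the monocyte and macrophage sum in double KO 4 and 5 (992 and 1496 CPM). Their relation was not tested. With double KO 3 left out, the log2 fold change was 1.68 for Top2a, 1.73 for Plk1 and 1.76 for Aurkb. With ERK2 KO 3 left out, the log2 fold change was 3.34 for Top2a and 3.48 for Plk1. The median of the list was 0.92 without double KO 3.

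Of p53 targets, 5 of 18 tested members were higher, 1 lower and 12 did not pass, with a median log2 fold change of 0.19. The share higher (27.8%) was near that of all tested genes (24.6%), and the share lower (5.56%) was below theirs (25.8%). Cdkn1a, or p21, which halts the cell cycle (chromosome 17, 29090979 to 29100722), was at between 51.8 and 98.9 CPM (median 77.5) in the double KO and at 3.1, 9.97, 8.41, 4.93 and 20.3 CPM in the ERK2 KO libraries (log2 fold change 2.82 ± 0.41, adjusted p = 0.00019). Gdf15, a stress hormone, moved the other way, from a range of 42 to 243 CPM in the ERK2 KO libraries to a range of 4.51 to 34.2 CPM (median 10.7) in the double KO (log2 fold change −3.6 ± 0.60, adjusted p = 0.000486), and Pmaip1, an inducer of cell death, rose (2.1, adjusted p = 0.00111). Mdm2, the p53 antagonist, rose by 0.22.

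Iron and haem genes leaned upward: 11 of 25 tested members were higher, 5 lower and 9 did not pass, with a median log2 fold change of 0.64. Ftl1 and Fth1, the ferritin chains that store iron, rose by 1.23 and 1.19. Ftl1 was at between 5828 and 10640.3 CPM (median 8084) in the double KO and at 3305, 2448, 3332, 3097 and 3005 CPM in the ERK2 KO libraries, with no overlap (log2 fold change 1.23 ± 0.19, adjusted p = 0.000232). Hamp, or hepcidin, which blocks iron export, rose (1.6, adjusted p = 0.0112; with all 21 libraries 1.31, adjusted p = 0.0736), as did Bmp6, which induces it (1.37, adjusted p = 0.00996), and Slc40a1, the iron exporter itself (1.1, adjusted p = 3.85e-05). Fech, the last enzyme of haem synthesis, fell (−0.75, adjusted p = 9.09e-06).

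Among imprinted genes, 3 of 9 tested members were higher, 2 lower and 4 did not pass, with a median log2 fold change of −0.16. As shares this was 33.3% and 22.2%, against 24.6% and 25.8% of all tested genes. Rian and Meg3, non-coding RNAs of the same imprinted cluster, fell together: Meg3 was at between 0.734 and 1.39 CPM (median 1.12) in the double KO and at 7.68, 38.2, 24.1, 11.9 and 27.5 CPM in the ERK2 KO libraries (log2 fold change −4.53 ± 0.38, adjusted p = 3.7e-06), and Rian at between 0.412 and 0.88 CPM (median 0.573) in the double KO and at 5.33, 25.3, 14.8, 7.17 and 19 CPM in the ERK2 KO libraries (log2 fold change −4.77 ± 0.41, adjusted p = 4.01e-06). No double KO library reached the ERK2 KO range for either. Plagl1, an imprinted factor elsewhere in the genome, rose (1.11, adjusted p = 0.00146).

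Among the remaining genes with the largest changes, Syt13, a synaptotagmin, was at 0.472, 27.7, 13, 2.99, 0.268 and 11.9 CPM in double KO 1 to 6 and had 0 counts in all 5 ERK2 KO libraries, so it was at least 600.4-fold higher against a floor of 3 counts over those libraries, or at least 379.7-fold without double KO 2. Hao1, the glycolate oxidase of hepatocytes, fell from a range of 183 to 361 CPM in the ERK2 KO libraries to a range of 1.51 to 7.03 CPM (median 3.02) in the double KO (log2 fold change −6.5 ± 0.42, adjusted p = 5.55e-07; with the 14 libraries −2.45, adjusted p = 0.105). Rgs16, a regulator of G protein signalling, was at 0.184, 0.258, 0.657, 0.22, 1.54 and 0.475 CPM in double KO 1 to 6 and at 2.2, 126, 55.6, 1.81 and 20.5 CPM in the ERK2 KO libraries (log2 fold change −6.45 ± 1.12, adjusted p = 0.000607). The Rgs16 call was lost with limma voom, as were those of Hsd3b5, Ces4a, Egr1, Cyp2a4 and Sult1e1. With ERK2 KO 2 left out, the log2 fold change was −5.35 for Rgs16.

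Lists of general cell machinery depended on the scaling. Of nuclear-encoded respiratory chain and ATP synthase genes, 9 of 32 tested members were higher, 1 lower and 22 did not pass, with a median log2 fold change of 0.13, or 27 higher and 0 lower under library size alone. Of proteasome subunits, 3 of 26 tested members were higher, 2 lower and 21 did not pass, with a median log2 fold change of 0.08, or 21 higher and 0 lower, and of cytosolic ribosomal protein genes, 5 of 25 tested members were higher, 1 lower and 19 did not pass, with a median log2 fold change of −0.03, or 12 higher and 0 lower, where the ribosomal median turned from −0.03 to 0.20. No direction is given for these lists.

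Genes beside Mapk3 were described because flanking sequence of a targeted allele can travel with it. Gdpd3, a lysophospholipase D that starts 0.6 kb beyond the end of Mapk3 (chromosome 7, 126766414 to 126775645), was at between 13.5 and 43.5 CPM (median 18.4) in the double KO and at 0.225, 0.385, 0.415, 0.407 and 0.796 CPM in the ERK2 KO libraries (log2 fold change 5.39 ± 0.38, adjusted p = 9.54e-07; with the 14 libraries 2.12, adjusted p = 0.0952). It was at 31.3, 0.589, 9.69, 20.4, 25.1, 28.5 and 19.7 CPM in the libraries labelled ERK1 KO 1 to 7. It was at 9.96 and 13.8 CPM in the libraries labelled ERK2 KO 5 and 7, and at 0.157 CPM in that labelled double KO 7. Gdpd3 was thus high wherever Mapk3 was low among the 21 libraries. The sources used here do not state a strand setting for the counting, so reads of close neighbours cannot be told apart with certainty. Coro1a, a coat protein of leukocyte actin 54.8 kb before Mapk3, was higher (2.22, adjusted p = 0.000181), as was Bola2 (0.40, adjusted p = 0.0102), and Slx1b, Ypel3 and Tbx6 were lower (−0.48, −0.57 and −1.26), with the Ypel3 call lost under library size alone (−0.35, adjusted p = 0.0839). Within 10 Mb of Mapk3, 96 of 177 tested genes were called (54.2%), against 50.6% of the other tested genes with a position.

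The 6 double KO libraries were not alike. Ciart, a repressor of the circadian clock, was at 1.05, 2.65, 0.949, 27.4, 27.2 and 17.6 CPM in double KO 1 to 6 and at 0.625, 0.256, 0.234, 0.738 and 0.106 CPM in the ERK2 KO libraries (log2 fold change 4.78 ± 1.05, adjusted p = 0.00274). Per3, another clock gene, was at 5.93, 8.65, 4.62, 31.7, 43.5 and 26.8 CPM in double KO 1 to 6 and at 8.45, 2.87, 3.92, 5.49 and 4.88 CPM in the ERK2 KO libraries (log2 fold change 1.73 ± 0.58, adjusted p = 0.0252). Double KO 1, 2 and 3 were low and double KO 4, 5 and 6 high for both clock genes. Mlxipl took the opposite order, at 171, 150.1, 168, 51.9, 38.5 and 56.7 CPM in double KO 1 to 6. Gpnmb and Chil3 were highest in double KO 4 and 5, and Top2a in double KO 3. Over the clock list, 2 of 18 tested members were higher, 5 lower and 11 did not pass, with a median log2 fold change of 0.03, and Npas2, a clock activator, fell (−2.78, adjusted p = 0.000965). These shares were 11.1% higher and 27.8% lower, against 24.6% and 25.8% of all tested genes. The sources used here state no time of day for the harvest, and its part in the clock differences was not tested. The call of Per3 was lost without any 1 of double KO 4 and 5 and ERK2 KO 2, 3 and 6 (adjusted p from 0.0502 to 0.0579).

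**Figure D5:**
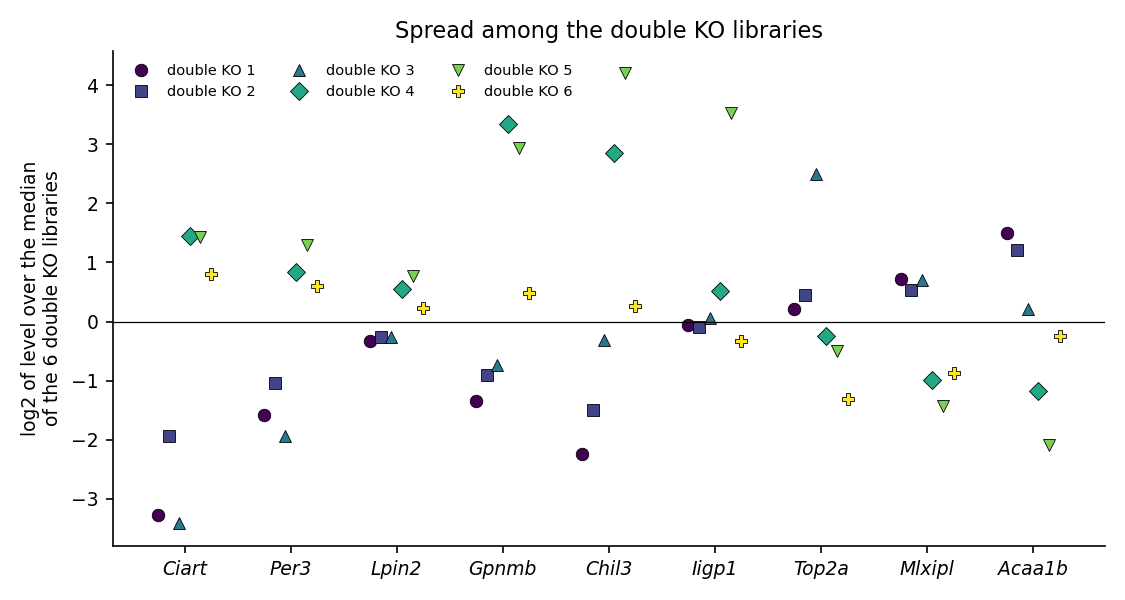
Levels of 9 genes, chosen after their values were seen, in double KO 1 to 6, as log2 of the level over the median of these 6 libraries. Ciart, Per3 and Lpin2 are lower in double KO 1 to 3 than in 4 to 6, Mlxipl is higher there, and Gpnmb and Chil3 are highest in double KO 4 and 5.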

How the data were processed

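The deposited data are raw counts: for 21 liver RNA libraries, the authors deposited a single table holding the number of reads assigned to each gene symbol. The submitters' processing notes name mm10 and GRCm38 as builds and edgeR, DESeq2, HTSeq, STAR, Trimmomatic and FastQC as tools, with no role or order. Versions, settings and strand were not given in the sources used here. Columns were matched to samples by title, with 0 unused.

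The 11 libraries were selected on Mapk3, and the libraries, gene lists and tests were chosen with earlier results of these data known. Genes were filtered by filterByExpr, scaled by TMM and tested with edgeR 4.0.16 (quasi-likelihood F test, R 4.3.3), with Benjamini-Hochberg adjustment over all 13979 genes tested; a call is an adjusted p under 0.05. Mapk3 was left out of the calls. Values after ± are approximate standard errors for log2 fold changes and SD for CPM. Each such standard error is the absolute log2 fold change over the square root of its F statistic. It is rough for genes near 0 in a group. The fit was run on simulated counts with few changed genes, as many up as down, and the same dispersion for every gene. Far more genes were called in the real data, so that run does not bear on the choice of scaling. Alternatives used limma 3.58.1 (voom), DESeq2 1.42.0, other scaling and filters, other libraries, and each library left out in turn.

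Named genes were Mapk3, the 10 largest rises and 10 largest falls without overlap (mean of 5 CPM or more in the higher group), the 8 with the highest mean CPM per direction among at least 2-fold changes, the 3 largest changes per list, and the 3 called genes nearest to Mapk3 on each side. Some genes that these rules name are not reported here. Other list members are given as examples chosen after their values were seen. RefSeq (GRCm38.p6) gave positions for 13357 tested symbols.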

Additional observations from a re-analysis of the deposited data

Results flagged for a closer look

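Among the genes named here, 35 of 298 groups of libraries held a library far from the others of its group, 28 of them in the double KO and 7 in the ERK2 KO, by Dixon's criterion at the 95% level. The rate of 1 in 20 behind that level holds for independent, normally distributed values. CPM values are skewed and many of these genes move together, so no excess over chance is read from the count. Values are CPM, each with the range of the other libraries of that group in brackets, and their part in the differences between the groups was not tested.

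In double KO 1, Ces4a at 0.315 (0.0258 to 0.113), Mup7 at 35 (0.681 to 4.91), Mup15 at 0.997 (0 to 0.073), Phlda1 at 40.9 (10.8 to 16.6) and Onecut1 at 5.27 (0.52 to 2.04) stood apart. Also in double KO 1, Ugt2b38 at 1.21 (0.0732 to 0.195), Ces3a at 894 (80.1 to 309), Ces3b at 137 (59.2 to 82.7), C8a at 106 (13.5 to 45.7) and Cidec at 32.2 (6.21 to 13.6) stood apart. In double KO 3, Gstm3 at 7207 (990.2 to 3248), Cyp2c70 at 458 (39.8 to 129), Foxa1 at 14.1 (10.1 to 11.3), Plk1 at 16 (1.08 to 3.25) and Aurkb at 10.6 (0.813 to 2.83) stood apart. Also in double KO 3, Top2a at 41.6 (2.98 to 10.1) and Ypel3 at 22.1 (38.2 to 44.2) stood apart. In double KO 4, Mmp12 at 222 (28.6 to 46.5) and Mmp13 at 17.4 (1.51 to 4.44) stood apart. In double KO 5, Rgs16 at 1.54 (0.184 to 0.657), Apoa4 at 1879 (234 to 839), Pmaip1 at 8.25 (2.49 to 4.38), Iigp1 at 309 (21.2 to 38.4) and H2-DMb1 at 56.6 (10.5 to 23.6) stood apart. Also in double KO 5, Ciita at 15.4 (3.1 to 6.27), Hand2 at 31.5 (6.87 to 15.3) and Gdpd3 at 43.5 (13.5 to 24) stood apart. In double KO 6, Jchain at 24.4 (9.4 to 13.9) stood apart. In double KO 1, the genes set apart include hepatocyte genes that were lower in the double KO as a whole, and in double KO 3 they include the mitotic genes Plk1, Aurkb and Top2a.

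In ERK2 KO 1, Phlda1 at 221 (50.7 to 86.6) stood apart. In ERK2 KO 2, Sult2a5 at 0.487 (0 to 0.104) stood apart. In ERK2 KO 3, Plk1 at 1.74 (0.229 to 0.59), Col1a1 at 12.9 (5.08 to 6.95) and Marco at 64.9 (1.8 to 8.64) stood apart. In ERK2 KO 4, Hyou1 at 433 (212 to 257) stood apart. In ERK2 KO 6, Rgs5 at 7.64 (3.77 to 4.39) stood apart. Marco, a macrophage receptor, and Plk1 and Col1a1 were set apart in the same ERK2 KO library.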

How the results depend on the processing

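The count of 7049 calls stayed within 1.5 times of itself in all 20 alternatives (5845 to 7450), and without a library it was 6209 to 6876. Under library size alone 5296 genes were higher (74.7% of the calls) and 1792 lower, against 3440 and 3609. Genes at least 2-fold lower numbered 464 with all 14 libraries and 500 with all 21 libraries in 3 groups, against 781. The 14 libraries add the 3 whose Mapk3 went against their label, and the 21 add these and the 7 ERK1 KO libraries. No paired analysis was possible because the sources used here match no library of a group to a library of the other. Depth was alike in all libraries, and low genes (such as chemokines near 0 in the ERK2 KO) limit the precision of their folds.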

Other observations

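Markers of cell types that make up little of the liver were mostly low. Of dendritic cell markers, 4 of 9 tested members were higher, 1 lower and 4 did not pass, with a median log2 fold change of 0.82. Clec9a, of cross-presenting dendritic cells, was higher (0.82, adjusted p = 0.0101) and lost its call with the 14 libraries. Of B and plasma cell markers, 2 of 7 tested members were higher, 0 lower and 5 did not pass, with a median log2 fold change of 0.26, with Jchain, which joins secreted antibodies, higher (2.04, adjusted p = 0.000269). Of 6 tested mesothelial markers, Krt8, a keratin that hepatocytes also express, and Lrrn4 were higher (1.36, adjusted p = 9.2e-05 and 3.41, adjusted p = 1.01e-05), and Msln and Upk3b were lower (−1.92, adjusted p = 0.0166 and −3.41, adjusted p = 0.000708), with both calls lost with the 14 libraries (−0.95, adjusted p = 0.246 and −1.89, adjusted p = 0.0603). Cela1, an elastase of the pancreas list, was at between 4.28 and 7.13 CPM (median 5.33) in the double KO and at 58.4, 76.8, 59.1, 62.7 and 69 CPM in the ERK2 KO libraries (log2 fold change −3.82 ± 0.13, adjusted p = 1.1e-08), while the pancreatic genes Prss1, Cpa1, Cpb1 and Amy2a5 were at 0 in all libraries. The globin genes Hba-a1, Hba-a2, Hbb-bs and Hbb-bt were at 0 in all libraries, and none of the 3 tested erythroid markers passed, though Klf1 (−0.66, adjusted p = 0.0518) was called lower in some alternatives, among them the 14 libraries (−0.61, adjusted p = 0.0458). Cidec, a lipid droplet protein of fat and fatty liver, was higher (2.11, adjusted p = 0.00195), and Lipe, the hormone-sensitive lipase, was lower (−0.86, adjusted p = 0.00128). The call of Msln was lost without ERK2 KO 1 (adjusted p = 0.0536).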
